A study of Mus musculus with 10 samples.

Results

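Lone H3K9cr peaks are places where the crotonate list of histone H3 lysine 9 crotonylation (H3K9cr) held a peak on chromosomes 1 to 19 while the crotonate lists of H3K4me3, H3K27ac and H3K27me3 held none that overlapped it by even 1 bp. They were chosen by these peak calls alone, so the absence of other crotonate marks at them is the rule and no result. They numbered 2897 of the 31861 H3K9cr peaks on these chromosomes (9.09%, exact 95% interval 8.78 to 9.41), out of 32666 in the whole list. The cells were embryonic neural stem/progenitor cells grown from mouse forebrain at E13.5 (midgestation) with epidermal and fibroblast growth factor at 20 ng/ml each. They received 10 mM crotonate, a short-chain fatty acid, for 24 h, or water as control. Native chromatin immunoprecipitation, in which chromatin is not crosslinked, gave 1 library for each of 4 marks in each treatment, and every list below is the authors' peak list of 1 such library. With 1 library a group there was no replicate error and no test. Intervals cover counting error over peaks or genes, which are not independent of their neighbours. The labels do not say how many embryos a culture came from. Antibody catalogue numbers were alike in both treatments, but the labels give a vendor for H3K9cr and H3K27ac in control only, and name different vendors in each treatment for H3K4me3 and H3K27me3.

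Crotonylation is one of several acylations of histone lysines. It is set by acetyltransferases such as p300 when crotonyl-CoA is at hand, removed by class I histone deacetylases and sirtuins, and bound by YEATS-domain proteins. H3K27ac marks active promoters and enhancers, H3K4me3 marks promoters, and H3K27me3 is set by Polycomb complexes at silenced genes. In most chromatin H3K9cr lies together with the marks of activity, and the peaks described here are those at which no such mark was called.

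Markers of the labelled cells were checked at gene ends. H3K4me3 and H3K27ac together marked 7 of 8 neural stem and progenitor markers after crotonate (Sox2, Nes and Hes1 among them, without Pax6) and 8 of 8 in control. Both marks were found at 0 of 3 astrocyte and 0 of 3 microglial markers in either treatment. They were found at 2 of 3 oligodendrocyte-lineage markers (Olig2 and Mbp) and 1 of 3 endothelial markers (Kdr) in both treatments. Of the neuronal markers they were at 1 of 4 after crotonate (Snap25) and 2 of 4 in control (Snap25 and Tubb3). Read depth is not given in the sources used here. A stand-in, the lowest background pileup implied by any peak of a list, was 3.20 in crotonate and 3.74 in control for H3K9cr, and 2.68 in crotonate and 3.11 in control for H3K27ac. On the same chromosomes the H3K27ac list held 58865 peaks after crotonate and 51780 in control. The part of these differences between libraries in the results below was not tested.

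A few lone peaks lay on promoters. Sequences of such promoters are shown first because their median CpG content was below that of other H3K9cr promoters. The windows run from 250 bases before to 50 after an annotated start, 5′ to 3′ along the gene, from RefSeq (GRCm38.p6). Capitals mark CpG dinucleotides. For each combination of H3K9cr and H3K27ac in control, the protein-coding promoter with the strongest lone peak is given, followed by Ribc2, chosen after its values were seen because it had H3K4me3 in control.
Cxcl10: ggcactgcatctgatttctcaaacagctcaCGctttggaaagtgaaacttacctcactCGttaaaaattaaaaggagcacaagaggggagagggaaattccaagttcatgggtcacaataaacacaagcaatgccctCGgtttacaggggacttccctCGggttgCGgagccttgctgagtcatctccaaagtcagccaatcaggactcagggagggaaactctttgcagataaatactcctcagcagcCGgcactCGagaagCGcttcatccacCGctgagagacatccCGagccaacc
Edar: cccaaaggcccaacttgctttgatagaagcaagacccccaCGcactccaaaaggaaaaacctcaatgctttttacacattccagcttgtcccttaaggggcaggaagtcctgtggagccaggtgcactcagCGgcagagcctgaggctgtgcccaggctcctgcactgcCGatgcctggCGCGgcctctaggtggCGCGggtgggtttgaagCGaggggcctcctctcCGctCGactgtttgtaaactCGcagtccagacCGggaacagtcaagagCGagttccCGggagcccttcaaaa
Eml1: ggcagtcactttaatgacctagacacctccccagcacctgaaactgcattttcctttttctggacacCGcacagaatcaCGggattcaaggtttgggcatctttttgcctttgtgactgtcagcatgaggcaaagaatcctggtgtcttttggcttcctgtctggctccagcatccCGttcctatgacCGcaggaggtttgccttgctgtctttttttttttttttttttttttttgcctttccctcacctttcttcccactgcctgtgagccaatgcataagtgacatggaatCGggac
Trim30d: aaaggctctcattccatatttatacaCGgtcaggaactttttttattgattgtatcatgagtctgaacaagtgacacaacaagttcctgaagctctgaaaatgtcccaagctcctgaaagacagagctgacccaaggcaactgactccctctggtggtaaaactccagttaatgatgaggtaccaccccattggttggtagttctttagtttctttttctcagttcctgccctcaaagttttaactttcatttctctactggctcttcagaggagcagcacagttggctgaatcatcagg
Ribc2: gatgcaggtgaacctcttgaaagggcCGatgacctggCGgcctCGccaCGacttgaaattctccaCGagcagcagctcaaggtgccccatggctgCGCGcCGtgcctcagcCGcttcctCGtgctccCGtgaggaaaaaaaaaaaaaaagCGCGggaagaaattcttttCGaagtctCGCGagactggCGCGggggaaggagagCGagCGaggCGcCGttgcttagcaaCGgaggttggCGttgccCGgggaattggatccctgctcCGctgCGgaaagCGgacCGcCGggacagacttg

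The Cxcl10 window (chr5:92348840-92349139, minus strand) belongs to an interferon-induced chemokine gene and lay wholly inside a lone peak with 7.85-fold enrichment over local background after crotonate. In control the place had H3K9cr (8.49-fold) and H3K27ac (4.11-fold). The Edar window (chr10:58675647-58675946, minus strand), of a receptor of skin appendage development, shared 52 bases with a peak of 7.71-fold enrichment, and in control had H3K9cr (6.96-fold) without H3K27ac. The Eml1 window (chr12:108495046-108495345, plus strand), of a microtubule-associated protein, shared 5 bases with a peak of 5.21-fold enrichment, and in control had H3K27ac (2.47-fold) without H3K9cr. The Trim30d window (chr7:104507800-104508099, minus strand) shared 75 bases with a peak of 6.42-fold enrichment and had neither mark in control. The Ribc2 window (chr15:85131848-85132147, plus strand), of a gene for a protein of ciliary microtubules, lay wholly inside a peak of 5.71-fold enrichment. These windows held 10, 14, 5, 1 and 30 CpG in the order printed. Such folds come from separate lists and are given to describe each list, not to read a change between treatments.

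Promoters under lone peaks were poorer in CpG than other promoters with H3K9cr. The rule leaves out every peak with crotonate H3K4me3, and the promoters compared were not matched for peak rank. Of all lone peaks 66.0% lay in the weakest 20% of the list. The part of the rule and of rank in the CpG difference was not tested. Of the promoter windows on the same chromosomes, 101 from 91 genes touched a lone peak, 60 of the genes being protein-coding. They held a median of 6 CpG (quartiles 4 and 9), whereas the 14445 windows touching another crotonate H3K9cr peak held 21 (14 and 30) and the 16850 windows without H3K9cr held 3 (1 and 5). Median GC content was 53.3% under lone peaks, 62% under other H3K9cr peaks and 47.3% without H3K9cr. Over 10 CpG were present in 20.8% of windows under lone peaks and in 83.4% under other H3K9cr peaks. The promoter table covered 17492 of 21887 protein-coding genes, and several windows can belong to 1 gene.

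**Figure D1:**
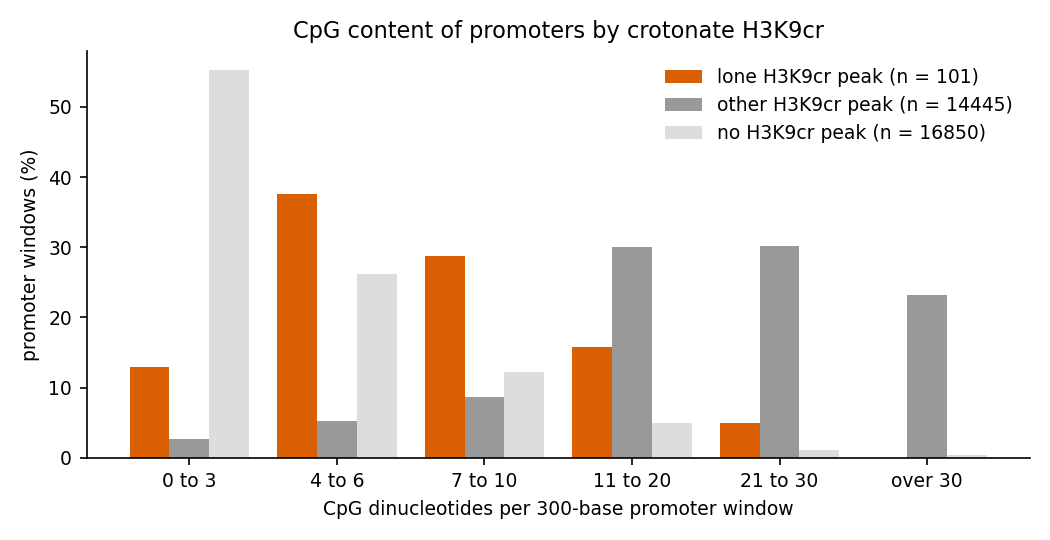
Share of promoter windows (percent) by the number of CpG in the 300-base window, for windows touching a lone H3K9cr peak, another crotonate H3K9cr peak or none. Windows under lone peaks are most often in the class of 4 to 6 CpG (37.6%), those under other H3K9cr peaks at 11 to 30.

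Motifs were searched on both strands in the same windows. The E-box CAGCTG, a core bound by basic helix-loop-helix factors, was in 27 of the 101 windows under lone peaks (26.7%), against 15.2% of windows under other H3K9cr peaks and 16.3% of all windows. The E-box CAGATG was in 16.8%, against 10.8% under other H3K9cr peaks and 17.2% of all. The NFI core motif TTGGCA was in 18.8%, against 10.4% and 14.1%. The SOX motif ACAATG was in 7.92%, against 6.58% and 12.2%, and the AP-1 motif TGANTCA in 7.92%, against 4.43% and 7.84%. Windows without H3K9cr held CAGCTG in 17.2%, CAGATG in 22.7%, TTGGCA in 17.2%, ACAATG in 17.0% and TGANTCA in 10.8%. The CTCF core motif was in 0 windows under lone peaks and in 4 of all windows. Some of the 101 windows overlap each other, and differences between the sets of windows were not tested. Matches of different motifs may share bases, and a match is a description of letters in these windows.

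The main question was what the same places carried in control. Of the 2897 lone peaks, 952 touched a control H3K9cr peak (32.9%, 31.2 to 34.6), whereas 84.5% of all crotonate H3K9cr peaks on these chromosomes did. Control H3K27ac was touched by 887 (30.6%, 28.9 to 32.3), against 81.5% of all. The second share is partly set by the rule, since a place with H3K27ac in control often kept it and was then no lone peak. The rule acts on the first share as well, since 75.8% of all had both acylations in control. Neither H3K9cr nor H3K27ac was present in control at 1598 lone peaks (55.2%, 53.3 to 57.0), against 9.85% of all. None of the 4 marks was present at 1524 of them (52.6% of lone peaks), against 7.17% of all. These shares too are partly set by the rule, which leaves out places with the other marks after crotonate. They also mix peaks of unlike rank. In the weakest 20% of the crotonate H3K9cr list neither acylation was present at 63.2% of lone peaks and 20.6% of other peaks. In the next 20% the shares were 43.1% and 9.33%. Among the 1218 lone peaks with a -log10 q of at least 5, neither acylation was present in control at 43.0%, and control H3K9cr was present at 49.8%.

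The remaining lone peaks fell into 3 combinations. Both acylations were present in control at 540 places (18.6%, 17.2 to 20.1), so that H3K9cr was called in both treatments and H3K27ac in control alone. H3K9cr without H3K27ac was present at 412 (14.2%, 13.0 to 15.5), and 347 of these also lacked H3K4me3 and H3K27me3, so that H3K9cr was the one mark called in either treatment. H3K27ac without H3K9cr was present at 347 (11.98%, 10.8 to 13.2), so that the list of one acylation held the place in control and the list of the other after crotonate.

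**Figure D2:**
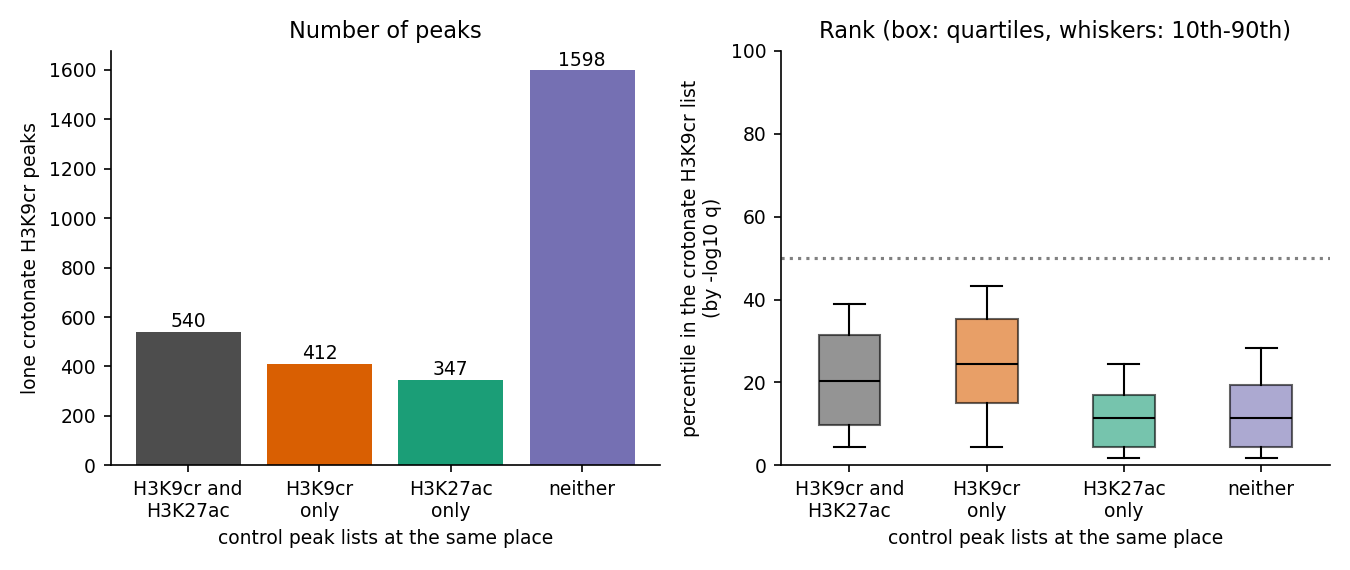
Left, number of lone H3K9cr peaks by the control acylation peaks at the same place. Right, percentile of these peaks in the crotonate H3K9cr list by -log10 q (box, quartiles and median; whiskers, percentiles 10 to 90; dotted line, middle of the list). The 1598 places with neither acylation in control and the 347 with H3K27ac only rank lowest, with a median at percentile 11.4 in both.

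The control H3K27ac peaks at lone places were themselves weak, and most had no H3K27ac after crotonate. They had a median rank at percentile 31.6 of the control H3K27ac list, whereas control H3K27ac peaks at other crotonate H3K9cr peaks stood at 76.8. Median width was 510 bp at lone places and 1713 bp at the others. Of the 891 control H3K27ac peaks that a lone peak touched, 757 touched no crotonate H3K27ac peak at all. The other 134 (15.0%) still touched one somewhere along their width, beside the lone peak. At other H3K9cr peaks 96.4% of the control H3K27ac peaks touched crotonate H3K27ac, a share the rule works to raise. Places that kept H3K9cr had stronger control H3K27ac (median percentile 37.2, 4.38-fold) than places with H3K27ac alone (23.7, 3.65-fold).

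Control H3K9cr at lone places was likewise low in its list. Its median rank was percentile 20.0 and its median fold enrichment 4.85, against percentile 59.1 and 25.8-fold under the other crotonate H3K9cr peaks. Where control H3K27ac was present as well, the control H3K9cr peak stood at percentile 23.0, and where it was absent at 15.9.

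Few lone peaks had H3K4me3 or H3K27me3 in control. H3K4me3 was present at 47 (1.62%, 1.19 to 2.15), against 51.5% of all crotonate H3K9cr peaks. As for H3K27ac, these shares are partly set by the rule, since 97.6% of the control H3K4me3 peaks and 78.9% of the control H3K27me3 peaks at other H3K9cr peaks touched the same mark after crotonate. Of the 47 control H3K4me3 peaks there, 42 touched no crotonate H3K4me3 peak. H3K27me3 was present at 184 (6.35%, 5.49 to 7.30), against 20.2% of all. Both comparisons also mix peaks of unlike rank. In the weakest 20% of the list, H3K4me3 in control was at 0.575% of lone peaks and 3.32% of other peaks. H3K27me3 in control was at 5.18% and 14.1% there. Of the 184 control H3K27me3 peaks involved, 95 touched no crotonate H3K27me3 peak, and the other 89 touched one beside the lone peak. H3K27me3 in control was found at 12.4% (9.36 to 16.0) of the places with H3K9cr alone, 10.2% (7.77 to 13.1) of those with both acylations, 4.32% (3.37 to 5.43) of those with neither and 2.59% (1.19 to 4.87) of those with H3K27ac alone.

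The strongest lone peaks with H3K4me3 in control lay in gene bodies or outside genes, at 4930519G04Rik (percentile 52.4), Lsamp (51.0) and near Slc1a3 (49.6). The next 4 genes were chosen after their values were seen, as those with the strongest such peaks within 1 kb of a gene end. At Ribc2, which shares its start region with the meiotic cohesin gene Smc1b, the peak at chr15:85131796-85132417 stood at percentile 34.8. In control that place held all 4 marks, with 10.7-fold H3K4me3, 9.28-fold H3K9cr, 3.89-fold H3K27ac and 3.52-fold H3K27me3. Spef1, a gene of ciliary microtubules, had a lone peak of 5.22-fold enrichment where control had 11.8-fold H3K4me3, 6.64-fold H3K9cr and 3.93-fold H3K27ac. Derl3, a gene of protein degradation at the endoplasmic reticulum, had one of 5.47-fold enrichment where control had 8.94-fold H3K4me3, 8.02-fold H3K9cr and 4.86-fold H3K27ac. At Slitrk3, a synaptic adhesion gene, a lone peak 222 bp from the gene had 5.47-fold enrichment, with H3K4me3 (4.85-fold) and H3K9cr (4.64-fold) in control.

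Lone peaks ranked low in their list, which is a description since the rule used that list. Their median stood at percentile 15.0 by -log10 q, with a summit pileup of 15 fragments, 3.61-fold enrichment and a width of 348 bp. The other H3K9cr peaks had medians of percentile 54.1, 51 fragments, 11.7-fold and 1095 bp. With the list cut into 5 parts of 20% each, the weakest 20% held 1913 lone peaks (66.0% of them), the next part 835, the middle part 148, the part above it 1 and the strongest 0. Rank differed by control state. The median was percentile 24.5 with H3K9cr alone in control, 20.3 with both acylations and 11.4 with H3K27ac alone or neither. Just inside the rule, 53 lone peaks lay within 50 bp of a peak of another mark, with median percentile 11.4 and 3.57-fold enrichment. Just outside it, 76 peaks had 50 or fewer bases covered by another mark, with the same medians.

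The share with a control H3K9cr peak was higher in stronger parts of the list, and in each part lower for lone peaks than for other peaks. In the weakest 20% it was 21.8% (20.0 to 23.7) of lone peaks and 56.0% (54.6 to 57.5) of other H3K9cr peaks. In the next 20% it was 49.9% (46.5 to 53.4) of lone peaks and 83.4% (82.4 to 84.3) of other peaks. In the middle 20% it was 79.7% (72.3 to 85.9) of lone peaks and 98.0% (97.6 to 98.3) of other peaks. For control H3K27ac the shares of lone peaks were 28.5%, 34.5% and 35.8% from the weakest to the middle part, those of other peaks 74.2%, 77.8% and 77.7%. This difference in H3K27ac is partly set by the rule in each part. Over all crotonate H3K9cr peaks, 26911 had H3K9cr in control and 24161 had both acylations there. The difference in H3K9cr is thus partly set by the rule as well. At other H3K9cr peaks of the whole list 96.4% of the control H3K27ac peaks touched crotonate H3K27ac.

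**Figure D3:**
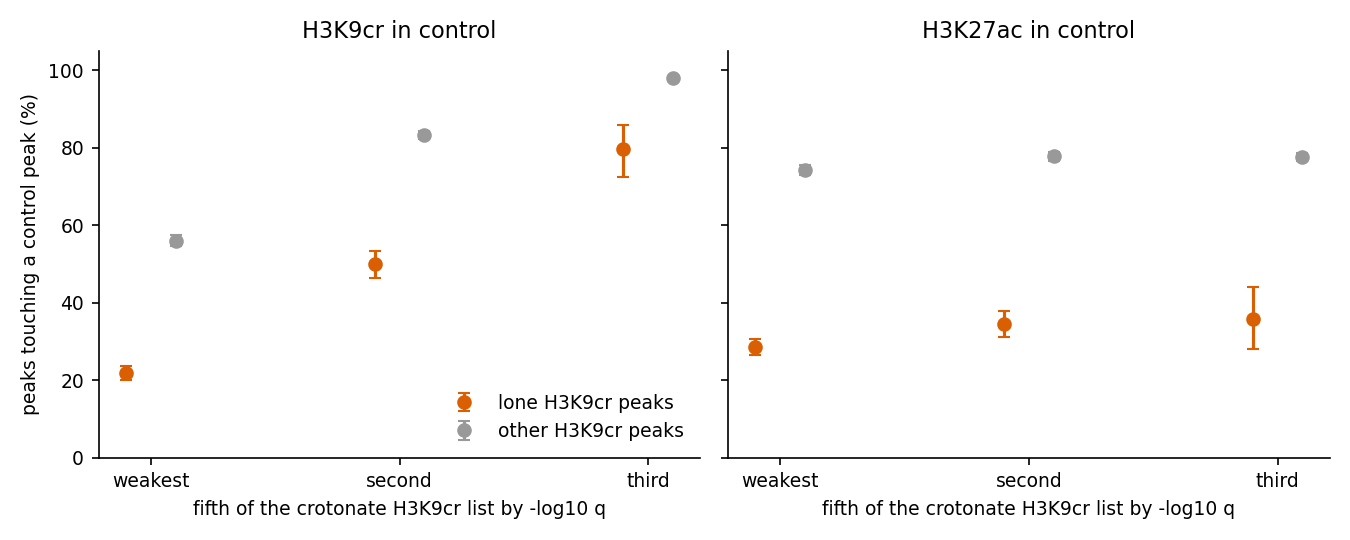
Percent of crotonate H3K9cr peaks that touch a control H3K9cr (left) or control H3K27ac peak (right), for lone peaks and other H3K9cr peaks in the 3 weaker parts (20% each) of the crotonate list; bars are exact 95% intervals for counting error. Lone peaks lie below other peaks in each part, from 21.8% against 56.0% to 79.7% against 98.0% for H3K9cr. Both differences are partly set by the rule.

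Only 20 lone peaks lay in the stronger 50% of the list, with 7.29-fold to 18.5-fold enrichment. Of these, 17 had H3K9cr in control, 7 of them with H3K27ac and 10 without. Inside gene bodies there were 9, outside genes 11 and at gene ends 0. Of other H3K9cr peaks in the middle 20% of the list, 98.0% had H3K9cr in control and 24.7% lay at gene ends. In the part above it these shares were 100% and 64.4%. The strongest of all lone peaks had neither acylation in control. It lay in Syt11, which encodes a synaptotagmin of membrane traffic (chr3:88771095-88771339, GRCm38, 3819 bp from the nearest gene end), with a pileup of 77 fragments and 18.5-fold enrichment at percentile 61.2. It was 245 bp wide, and the nearest crotonate peak of another mark was 306 bp away, the nearest of H3K27ac 370 bp.

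Strong lone peaks with both acylations in control included one 30054 bp from Slc12a2, the gene of a sodium, potassium and chloride cotransporter (chr18:57976876-57977236). It had 14.5-fold enrichment after crotonate, and in control 10.9-fold H3K9cr and 2.96-fold H3K27ac. Another lay 7487 bp from Khdc4 (chr3:88677570-88677940), with 11.7-fold enrichment after crotonate and 17.5-fold H3K9cr and 5.11-fold H3K27ac in control. Another, 294599 bp from the protein kinase gene Prkd1, had 13.6-fold enrichment after crotonate, with 14.9-fold H3K9cr and 3.99-fold H3K27ac in control, and an H3K27me3 peak called 113 bp away after crotonate. The next lay within Klf13, which encodes a Krüppel-like transcription factor (chr7:63897051-63897904). It had 11.2-fold enrichment after crotonate, and 5.51-fold H3K9cr and 5.66-fold H3K27ac in control.

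With H3K9cr alone in control, the strongest lone peak lay inside Hnf4a, a nuclear receptor gene best known from liver (chr2:163535163-163535584). It had 9.57-fold enrichment after crotonate and 10.1-fold in control, and the nearest crotonate H3K27ac peak was 32654 bp away. A peak 6506 bp from St8sia1, the gene of the enzyme that makes ganglioside GD3 (chr6:142814479-142815034), had 12.1-fold enrichment after crotonate and 14.1-fold in control, and the nearest crotonate peak of another mark was 51766 bp away. Another lay 2080 bp from the tRNA-modification gene Trmt12 (11.4-fold after crotonate, 16.5-fold in control). These are places at which the control list already held H3K9cr with no H3K27ac.

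The strongest lone peaks with H3K27ac alone in control were weaker. They lay inside Dido1, which encodes a chromatin reader with a PHD finger (6.80-fold H3K9cr after crotonate, 3.30-fold H3K27ac in control), and 23262 bp from Jdp2, a repressor that pairs with AP-1 factors (6.90-fold after crotonate, 3.41-fold H3K27ac in control). The other 2 were near Phf7 and the inositol monophosphatase gene Impa1, with 6.35-fold and 6.42-fold enrichment after crotonate. With neither acylation in control, the strongest after Syt11 lay 8007 bp from the kinase gene Map3k21 (9.84-fold), 7079 bp from Lemd2, a gene of the inner nuclear membrane (9.52-fold), and 17096 bp from Vps13c, a lipid-transfer gene (9.51-fold).

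Lone peaks lay mostly in gene bodies. Of the 2897, 1609 (55.5%, 53.7 to 57.4) lay in the body of a protein-coding gene, 1049 (36.2%, 34.5 to 38.0) outside genes and 239 (8.25%, 7.27 to 9.31) within 1 kb of an annotated gene end. Over all crotonate H3K9cr peaks these shares were 36.2%, 24.3% and 39.4%. In the weakest 20% of the list lone peaks and other H3K9cr peaks were placed alike within counting error, with 60.8% (58.6 to 63.0) and 59.4% (58.0 to 60.9) in gene bodies and 7.48% (6.34 to 8.75) and 8.90% (8.08 to 9.77) at gene ends. In the next 20% more of the lone peaks lay outside genes, 43.8% (40.4 to 47.3) against 35.2% (33.9 to 36.5). In the middle 20% fewer lay at gene ends, 8.11% (4.26 to 13.7) against 24.7% (23.7 to 25.8). Exons and introns were not told apart, since the gene table used gives gene bounds.

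Place differed between the control states. Lone peaks with H3K27ac alone in control lay in gene bodies in 66.0% of cases (60.7 to 71.0), and those with H3K9cr alone in 43.4% (38.6 to 48.4). Outside genes were 47.3% (42.4 to 52.3) of those with H3K9cr alone, 37.8% with both, 35.0% with neither and 26.2% (21.7 to 31.2) with H3K27ac alone. The states also differed in median rank, at percentile 11.4 with H3K27ac alone or neither, 20.3 with both and 24.5 with H3K9cr alone. Place went with rank among lone peaks. From the weakest to the middle part of the list, gene bodies held 60.8%, 46.1% and 40.5% of them. Outside genes were 31.7%, 43.8% and 51.4%. The part of rank in the differences between control states was not tested. Within gene bodies the median position was 42.9% of the way from start to end for lone peaks and 44.4% for other H3K9cr peaks. Long noncoding RNA genes were touched by 345 lone peaks (11.9%, 10.8 to 13.1), against 13.48% (12.8 to 14.2) of other H3K9cr peaks in the 2 weakest parts of the list and 15.5% of all other peaks. tRNA genes were touched by 0 of 2897 lone peaks (exact upper limit 0.127%), against 5 of 9990 other peaks in those 2 parts (0.0501%) and 0.466% of all other peaks, so that no difference from peaks of like rank was detectable.

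**Figure D4:**
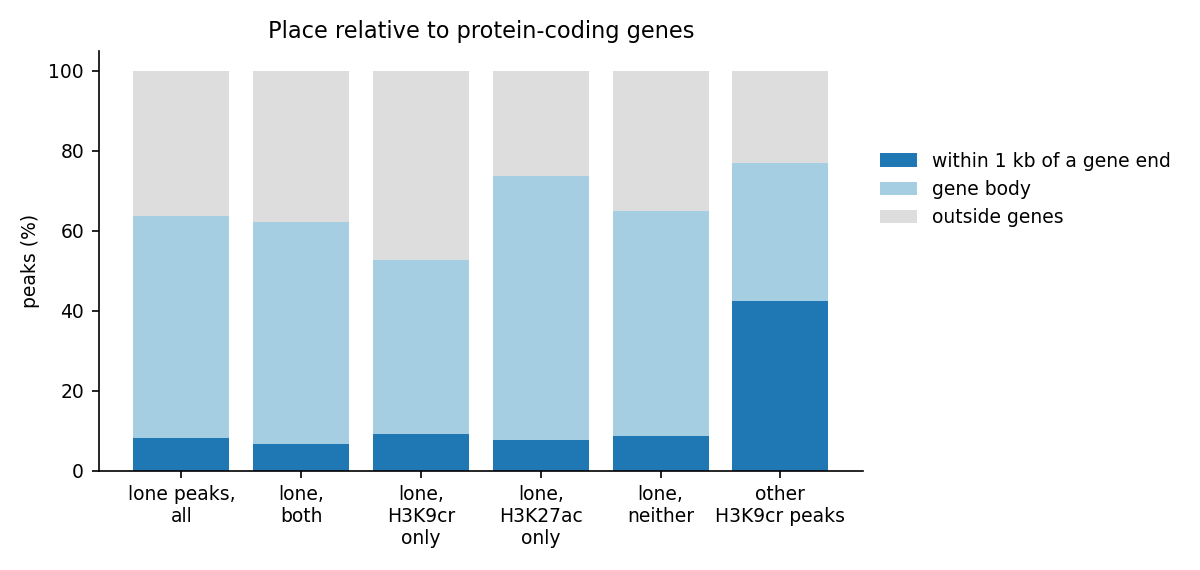
Percent of peaks within 1 kb of an annotated end of a protein-coding gene, in a gene body or outside genes, for lone H3K9cr peaks (all, and by control acylations) and for other crotonate H3K9cr peaks. Gene ends hold 8.25% of lone peaks and 42.5% of other peaks.

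Distance to the other marks after crotonate describes how isolated the places were. The nearest crotonate H3K27ac peak was a median of 5694 bp away, the nearest H3K4me3 peak 17566 bp and the nearest H3K27me3 peak 27027 bp. A peak of any of the 3 marks lay within 1000 bp of 795 lone peaks (27.4%), and none lay within 10000 bp of 688 (23.7%). By control state, the median distance to crotonate H3K27ac was 2782 bp with H3K27ac alone, 4933.5 bp with both acylations, 5756 bp with neither and 10291.5 bp with H3K9cr alone. Of the 1598 places with neither acylation in control, 266 (16.6%) had a control peak of H3K9cr or H3K27ac within 1000 bp.

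**Figure D5:**
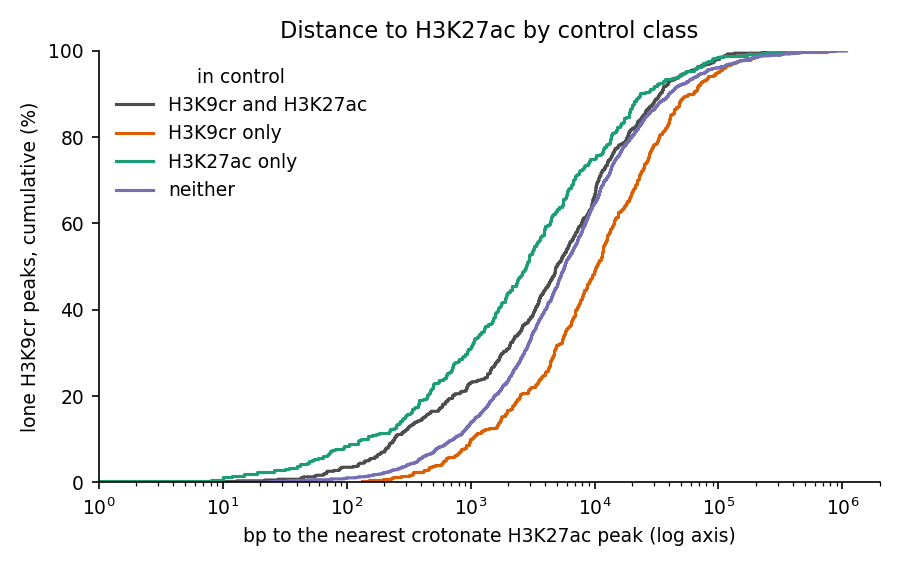
Cumulative percent of lone H3K9cr peaks by distance in bp to the nearest crotonate H3K27ac peak (log axis), by control acylations. The curve for places with H3K9cr only in control lies farthest right (median 10291.5 bp), that for H3K27ac only farthest left (2782 bp).

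Lone peaks were scattered over many genes. Of 20665 protein-coding genes on these chromosomes, 1589 (7.69%) held at least 1 lone peak in the gene or within 1 kb, 248 at least 2, 59 at least 3 and 14 at least 4. Longer genes held one more often, 28.8% of genes over 200 kb against 3.44% of genes under 20 kb. Per Mb of gene, however, there were 0.986 lone peaks in the longest class and 3.86 in the shortest, and other H3K9cr peaks followed the same order with 9.78 and 72.5. Genes with a lone peak in the body carried H3K4me3 at an end in control in 81.9% of cases (79.7 to 83.9) and H3K27ac in 81.7%. Among genes with another H3K9cr peak in the body and no lone peak these shares were 69.9% (68.4 to 71.3) and 69.3%, and among all genes 60.4% and 58.9%. Median gene length was 68.9 kb, 48.5 kb and 17.5 kb in these 3 sets, and its part in the difference was not tested. H3K27me3 at an end in control was found at 33.6% (31.1 to 36.2) and 34.2% (32.7 to 35.8) of the first and second set. Among all genes this share was 22.5% (21.9 to 23.1).

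The genes with the most lone peaks were Mpp7, Gse1, Nfix, Nav2, Zfp423, Arid1b, Kcnip1 and Dst. Mpp7, which encodes a scaffold protein of cell junctions, held 10, and all lay in a stretch of 39.0 kb near the upper annotated end of the gene on chromosome 18. Their fold enrichments in order along the chromosome were 4.04, 3.01, 3.54, 2.34, 4.52, 3.19, 3.61, 5.71, 4.52 and 4.15. The first 8 had neither acylation in control, the ninth had H3K9cr and the last H3K27ac. The lists held 12 H3K9cr peaks at Mpp7 after crotonate and 3 in control, against 4 H3K27ac peaks after crotonate and 6 in control. Few lone peaks ran together like this. With peaks up to 10 kb apart joined, 2553 (88.1%) stood by themselves, and the longest run held 8, all of them at Mpp7.

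Nfix, a nuclear factor I gene of neural progenitors, held 8 lone peaks in 48.5 kb on chromosome 8, with 2.81-fold to 4.28-fold enrichment. Of these 7 had neither acylation in control and 1 had both, and the gene had 20 H3K9cr peaks after crotonate and 12 in control. Gse1, a coiled-coil protein gene on the same chromosome, held 9 in 325.5 kb, 6 of them with neither acylation in control, among 39 H3K9cr peaks after crotonate and 34 in control. Nav2, a gene of neuronal navigation, held 6 among 27 H3K9cr peaks in each treatment. Zfp423, a zinc finger factor of brain development, Arid1b, a subunit of BAF chromatin remodelers, Kcnip1, a partner of potassium channels, and Dst, a cytoskeletal linker, held 5 each. H3K4me3 lay at an end of each of these genes in both treatments, except at Kcnip1, where it lay in neither.

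Lists of genes were chosen with earlier results of these data known, so the counts describe them and are no independent evidence. Neural stem and progenitor genes had a median length of 18.5 kb and 3.28 lone peaks per Mb, against 3.86 in genes under 20 kb and 1.85 over all genes. Lone peaks were found at 5 of the 30 (16.7%, 5.64 to 34.7), against 7.69% of all genes, and the interval includes the share of all genes. These were Ccnd1, a cyclin of G1, with 4.04-fold enrichment at its end and both acylations in control (4.85-fold H3K9cr and 9.73-fold H3K27ac), Egfr, also with both, and Notch2, Gli3 and Ccnd2, each with neither. Enrichment at these 5 lay between 2.85-fold and 4.04-fold. Of 29 neuronal genes 7 held one (24.1%, 10.3 to 43.5), or 1.67 per Mb. Syt1, the calcium sensor of synaptic vesicles, had 4.99-fold enrichment and neither acylation in control. Ncam1, a neural adhesion gene, held 3, the strongest with 4.40-fold enrichment and H3K9cr in control.

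Axon guidance and adhesion genes held lone peaks at 15 of 35 (42.9%, 26.3 to 60.6), but their median length was 433 kb. Of genes over 200 kb 28.8% held one. The density was 1.00 per Mb, against 0.986 in genes over 200 kb and 1.85 over all genes. Robo1, a Slit receptor, had 6.42-fold enrichment with H3K9cr in control, Ephb2, an ephrin receptor, held 4, the strongest 5.47-fold with H3K9cr in control, and Plxna2, a semaphorin receptor, had 5.07-fold with neither acylation in control. Of genes of 20 to 50 kb 7.90% held a lone peak, or 2.64 per Mb. The 30 genes for acylation writers, erasers and readers had a median length of 40.6 kb and 2.96 lone peaks per Mb. Of these 7 held one (23.3%, 9.93 to 42.3). Among them were Mllt3, whose YEATS domain binds crotonylated lysine (4.76-fold, both acylations in control), Hdac9 (4.04-fold) and Dpf2 (3.42-fold), the last a crotonyl-lysine reader, both with neither in control. Of 30 genes of acyl-CoA metabolism 3 held one (10%, 2.11 to 26.5). Among them were Acacb, an acetyl-CoA carboxylase gene (5.67-fold), and Cpt2, of fatty acid transport into mitochondria (3.33-fold), both with neither in control.

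Glial and other cell lists are short, with 14 or 15 genes each. Lone peaks were at 1 of 15 astrocyte genes (Nfia, which held 2), 2 of 14 oligodendrocyte-lineage genes (Cspg4 and Mbp), 1 of 15 microglial genes (Aif1, 3.63-fold, with H3K27ac in control) and 2 of 15 endothelial and mural genes (Cspg4 and Acta2). Per Mb these lists held 1.80, 3.45, 2.63 and 2.94 lone peaks in the order given, against 1.85 over all genes. The interval of each of these 4 shares includes 7.69%, as do those of the neural stem and progenitor list and the acyl-CoA list. Cspg4 stands on both the oligodendrocyte-lineage list and the endothelial and mural list. The strongest lone peak at each list gene lay in the weaker 50% of the H3K9cr list.

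The same rule applied to the control lists found 928 of 31019 H3K9cr peaks without another mark (2.99%, 2.80 to 3.19), against 9.09% after crotonate. Of these 928, 305 (32.9%, 29.8 to 36.0) had no H3K9cr peak after crotonate, 276 (29.7%, 26.8 to 32.8) had H3K27ac and 100 (10.8%, 8.85 to 13.0) had H3K4me3. Only 327 (35.2%, 32.2 to 38.4) touched a lone peak of the crotonate list. These sets of places thus overlapped in 35.2% of the control set and 11.3% of the crotonate set.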

How the data were processed

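Peak lists of 8 immunoprecipitated libraries were used, 1 per mark and treatment, and groups were taken from the sample titles. No list was used for the 2 inputs. The submitters' processing notes name Bowtie2 2.4.1, MACS2 2.2.7.1 and the GRCm38 build, while calling settings and the use of inputs are not stated in them. Per the file headers, the lists have the layout of a MACS2 peak table. The deposited pileup is a coverage signal at the summit, and the deposited fold enrichment is its ratio to local background. The deposited -log10 p-value and -log10 q-value belong to the summit, and the lists end near a q-value of 0.05. All these values are the authors', and they were used within a list only. Positions count from 1 with both ends included.

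Peaks were compared by overlap of at least 1 bp with Python 3.11.15, numpy 2.4.6, pandas 2.3.3 and scipy 1.17.1, and the overlap functions were tested on simulated data. Shares carry exact (Clopper-Pearson) 95% intervals that cover counting error only. Depth is unknown. Gene positions were those of RefSeq on GRCm38.p6, and gene-end windows reached 1 kb either side of both annotated ends, because the table of starts misses genes. The planned sequence windows around summits were replaced by promoter windows, as no genome was used here.

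The members and lists were chosen with earlier results of these data known. Named by rule were the 6 strongest lone peaks by -log10 q, the 4 strongest in each of 4 control states, the 8 genes with most lone peaks and up to 4 genes of each list. A few items that the rule names are not reported here. Gaps of 1000 and 3000 bp, stricter strength limits, other overlap rules, merged peaks and other windows were tried as alternatives.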

Additional observations from a re-analysis of the deposited data

How the results depend on the processing

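Each value rests on 1 library, and a mark just under its calling limit counts as absent, so these peaks show the absence of calls. No paired analysis was possible because each mark and treatment has 1 library and the labels give no replicate numbers. The number of lone peaks was 20 in the stronger 50% of the H3K9cr list and 1218 at a -log10 q of at least 5. With a gap of at least 3000 bp to other crotonate marks it was 1484. It was within 1.5 times of 2897 with a gap of 1000 bp, with summits deciding overlap and with H3K9cr peaks merged.

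The share with control H3K9cr was 30.5% with a gap of 1000 bp, 85% in the stronger 50%, 49.8% at a -log10 q of 5, 40.2% with control peaks within 1000 bp counted, 29.7% when 50% of a lone peak had to be covered, and 1.69% with the stronger 50% of the control lists. Control H3K27ac was found at 26.9% and 25.8% with gaps of 1000 and 3000 bp, and at 35%, 33.3%, 40.5%, 23.8% and 5.76% under the other settings in the same order. Neither acylation was found at 58.9% and 58.8% with the gaps, and at 15%, 43.0%, 46.0%, 61.0% and 93.1% under those settings. In the 20 strongest peaks, at a -log10 q of 5 and with control peaks within 1000 bp counted, neither was thus no longer the state of most lone peaks. Protein-coding genes held 62.2% as reported, 59.4% and 57.5% with the gaps, 45% in the stronger 50%, 55.1% at a -log10 q of 5 and 59.6% with peaks merged. Gene ends held 0% in the stronger 50%, 9.85% at a -log10 q of 5, 6.11% with windows of 500 bp, 29.6% with windows of 5000 bp and, in an alternative chosen after seeing the data, 5.90% with annotated starts. For these shifts the cause was not tested beyond the change of setting itself. Ranked by fold enrichment or pileup, the median lone peak stood at percentile 14.2 or 12.6.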

Other observations

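On chromosome X, outside the rule, 47 of 800 crotonate H3K9cr peaks (5.88%) had no other crotonate mark, and on chromosome Y 0 of 5. Among the autosomes the share of lone peaks ran between 7.01% on chromosome 13 and 11.1% on chromosome 15.

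Prkacb, Lrrc43 and Agtr1b had other lone peaks on promoters that were strong among such peaks, but at percentiles 43.6, 43.3 and 38.5 of the list. Prkacb encodes a catalytic subunit of protein kinase A (6.83-fold after crotonate, with 10.8-fold H3K9cr and 5.11-fold H3K27ac in control). The peak at Lrrc43 was 7.37-fold, with 4.33-fold H3K9cr and 4.54-fold H3K27me3 in control. At Agtr1b, an angiotensin receptor gene, it was 6.25-fold, with 3.52-fold H3K27me3 in control. At Slc1a3, the glutamate transporter gene of radial glia and astrocytes, a lone peak 6329 bp from the gene had 9.51-fold enrichment after crotonate, and the place held 5.35-fold H3K9cr, 2.99-fold H3K27ac and 3.03-fold H3K4me3 in control. Inside Ebf2, a transcription factor gene, a lone peak of 10.9-fold enrichment stood where control had 8.23-fold H3K9cr and 7.59-fold H3K27me3. These genes were chosen after their values were seen.

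Short runs of lone peaks besides the one at Mpp7 included 5 in 25.8 kb on chromosome 8, inside Nfix, and 4 in 3.00 kb on chromosome 7, where 3 of the 4 had neither acylation in control.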
